A study of Mus musculus with 10 samples.

Results

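The transcripts described here belong to the cell-cycle brake of mouse neural stem cells that lack p53. They are 10 genes of the 21101 in the deposited table, chosen by name: Cdkn1a, which encodes p21, and Cdkn1b, which encodes p27, of the Cip/Kip family of inhibitors of cyclin-dependent kinases (CDKs); Cdkn2a, Cdkn2b, Cdkn2c and Cdkn2d of the Ink4 family; and Trp53, Mdm2, Ccng1 and Rb1 of the p53 and retinoblastoma pathways. All 10 passed the filter on low values and are among the 15660 genes tested. They and the lists of other genes used below were chosen with earlier results of these data known. Cip/Kip proteins bind cyclin-CDK complexes and can block the kinases that drive S phase, whereas Ink4 proteins bind Cdk4 and Cdk6 and keep them from the D cyclins. Active Cdk4 and Cdk6 phosphorylate the Rb protein and release E2F factors. The p53 protein is the best known activator of Cdkn1a, Mdm2 and Ccng1, and other factors can also drive Cdkn1a. In neural stem cells, p21 and p27 restrain division of stem cells and of their progeny.

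RNA sequencing libraries were made from 5 lines of p53-null mouse neural stem cells, all transduced with the mutant isocitrate dehydrogenase IDH1(R132H). The 3 Atrx-deleted lines were mA16d#4, mA19d#4 and mA19d#7, and the 2 control lines were Control NSC#1 and Control NSC#2. Every line gave 1 library after 8 days in differentiation medium, which was neural basal medium with B27 and no growth factors, and 1 library in proliferation medium, to which EGF and bFGF were added (20 ng/ml). The groups are therefore Atrx-deleted differentiation (n = 3), Control differentiation (n = 2), Atrx-deleted proliferation (n = 3) and Control proliferation (n = 2). Loss of p53 and mutant IDH1 are shared by every library, so their effect cannot be measured here. The labels do not say how Atrx was deleted, which part of Trp53 is missing, or whether the lines came from different animals, and mA19d#4 and mA19d#7 share part of their name. The p-values therefore speak for these lines and not for animals. Those of the linear model used below measure the spread between libraries within a group, pooled over the 4 groups. That model takes the libraries of a line in different media as independent. The sample codes of control and Atrx-deleted libraries have different stems, so whatever the stem stands for and genotype cannot be told apart.

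Levels are given in TPM, an RNA abundance relative to the whole library, back-transformed from the deposited log2 values. Sorted, these values are identical in all libraries, the mark of quantile normalisation before deposit. Levels, ratios and SDs below are therefore those of normalised values. TPM is scaled to transcript length, so levels of different genes can be set side by side. Differences are log2 differences of TPM + 1, tested with limma over all tested genes, and a gene was called at a Benjamini-Hochberg adjusted p below 0.05. Atrx, the deleted chromatin remodeller, was at 54.4, 47.2 and 54.0 TPM in the differentiation libraries of mA16d#4, mA19d#4 and mA19d#7, against 128 and 127 TPM in those of the control lines. In proliferation medium Atrx was at 71.6, 42.8 and 74.0 TPM in the Atrx-deleted lines, against 163 and 149 TPM in the control lines. It fell by 1.28 and 1.34 on the log2 scale in differentiation and proliferation medium (adjusted p = 0.0204 and 0.0389). The ratios of the means, Atrx-deleted over control, were 0.408 and 0.403. With 1 value for the whole gene, the level does not check the deletion, since transcript outside a deleted part would still be counted. All 8 neural stem cell markers had a mean of at least 1 TPM in every group. Markers of other neural cells were also present. The 7 neuronal markers summed to 426 to 1210 TPM in Atrx-deleted and 675 to 823 TPM in control libraries. Tubb3 and Map2 were abundant, and Stmn2 was under 1 TPM throughout. The markers did not share 1 direction between genotypes. In Atrx-deleted and Control proliferation, Tubb3 averaged 279 and 106 TPM and Dcx 16.6 and 2.36 TPM. In the same groups Rbfox3 averaged 1.0 and 3.61 TPM and Snap25 0.176 and 1.88 TPM. The 7 astrocyte markers summed to 1330 to 3530 TPM in Atrx-deleted and 1000 to 2750 TPM in control libraries, and the 7 oligodendrocyte lineage markers to 493 to 1510 TPM in Atrx-deleted and 1280 to 1740 TPM in control libraries. The 4 ependymal or choroid plexus markers summed to 17.8 to 158 TPM in Atrx-deleted and 8.2 to 65.7 TPM in control libraries. Sums were low for the 5 endothelial markers (3.51 to 5.59 TPM in Atrx-deleted and 4.89 to 6.75 TPM in control libraries), the 7 microglial ones (0.962 to 11.3 TPM in Atrx-deleted and 0.0368 to 8.58 TPM in control libraries) and the 8 fibroblast or mural ones (4.76 to 10 TPM in Atrx-deleted and 1.75 to 8.33 TPM in control libraries). Cdh5, Cldn5, Cx3cr1 and Pdgfrb were under 1 TPM in every library, whereas Kdr was above 1 TPM in every group by its mean and P2ry12 averaged 5.39 TPM in Atrx-deleted differentiation. The part of these cell types in the differences below was not tested. The differentiation library of mA19d#7 stood apart: its rank correlation with its own line in proliferation medium was 0.926, against 0.957 with the proliferation library of mA16d#4.

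The 3 upstream sequences are shown because they belong to the 2 genes that were called, and Cdkn1a has 2 starts that differ in these letters. They are the 250 bases before a transcription start, from RefSeq on GRCm38.p6, on the strand of the gene and written 5′ to 3′. Capitals mark the GC box GGGCGG and the p53 half-site, each searched on both strands. RefSeq gives Cdkn1a a distal start, preceded by chr17:29090729-29090978 (plus strand), and a proximal one, preceded by chr17:29093519-29093768 (plus strand). Trp53 is preceded by chr11:69580109-69580358 (plus strand).
Cdkn1a distal: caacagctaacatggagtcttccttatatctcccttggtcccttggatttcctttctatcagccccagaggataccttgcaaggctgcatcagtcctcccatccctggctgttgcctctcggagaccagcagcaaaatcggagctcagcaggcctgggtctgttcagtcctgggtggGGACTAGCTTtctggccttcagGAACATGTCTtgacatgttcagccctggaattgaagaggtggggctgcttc
Cdkn1a proximal: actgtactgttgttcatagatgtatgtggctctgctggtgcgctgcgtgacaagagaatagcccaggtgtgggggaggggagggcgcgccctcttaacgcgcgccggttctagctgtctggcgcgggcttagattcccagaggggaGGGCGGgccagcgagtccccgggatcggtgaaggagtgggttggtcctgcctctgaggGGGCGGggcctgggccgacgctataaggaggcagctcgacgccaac
Trp53: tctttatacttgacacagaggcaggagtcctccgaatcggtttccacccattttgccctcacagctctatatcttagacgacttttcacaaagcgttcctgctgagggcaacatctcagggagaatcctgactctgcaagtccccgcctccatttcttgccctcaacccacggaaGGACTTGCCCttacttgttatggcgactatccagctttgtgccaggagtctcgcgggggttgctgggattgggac
The window before the distal Cdkn1a start holds 2 matches to the p53 half-site, whose first bases lie 73 and 51 bases upstream, and no GC box. Only exact matches were marked. The stretch directly after the second match departs from the half-site pattern in its first letter only and is left unmarked. The proximal window holds 2 GC boxes, 104 and 46 bases upstream, and no p53 half-site. Upstream of Trp53 there is 1 half-site, 75 bases before the start. Windows of Mdm2, Ccng1 and Cdkn2d, which were not called, also hold 1 half-site each, 186, 185 and 102 bases upstream. Those of Cdkn1b, Cdkn2a, Cdkn2b and Cdkn2c hold none. GC boxes also lie before Cdkn1b, Cdkn2a, Cdkn2c, Cdkn2d and Mdm2, so neither motif is particular to the called genes. Over the 32851 RefSeq windows of the same length, 32.7% hold a GC box and 7.13% a p53 half-site. A match is a description of letters, and 1 half-site is only part of a p53 element.

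Cdkn1a (ENSMUSG00000023067, GRCm38 chr17:29090976-29100727 in GENCODE M21) was the one CDK inhibitor called between genotypes. In differentiation medium it was at 99.6, 46.0 and 33.6 TPM in mA16d#4, mA19d#4 and mA19d#7, against 16.3 and 17.1 TPM in Control NSC#1 and Control NSC#2. In proliferation medium Cdkn1a was at 68.1, 67.2 and 59.0 TPM in the same Atrx-deleted lines, against 11.1 and 9.36 TPM in the control lines. Every Atrx-deleted library lay above every control library in both media, the lowest being the differentiation library of mA19d#7. The means were 59.7 ± 35.1 TPM in Atrx-deleted differentiation and 16.7 ± 0.515 TPM in Control differentiation (SD, n = 3 and 2), a ratio of 3.58. In proliferation medium they were 64.8 ± 4.99 TPM in Atrx-deleted lines and 10.2 ± 1.21 TPM in control lines, a ratio of 6.33. Thus the Atrx-deleted libraries were tightly grouped in proliferation medium and spread about their mean in differentiation medium. In these bulk libraries more cells with the transcript and more transcript per cell cannot be told apart.

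The difference was 1.63 on the log2 scale in differentiation medium (SE 0.361, 95% interval 0.83 to 2.43, limma adjusted p = 0.043). In proliferation medium it was 2.55 (SE 0.361, 95% interval 1.75 to 3.35, limma adjusted p = 0.0222). An exact two-sided permutation test of Cdkn1a alone over the lines gave p = 0.2 in differentiation and p = 0.1 in proliferation medium, and 0.1 is the smallest p that 3 against 2 lines can give. Leaving out 1 library at a time kept the difference between 1.19 and 1.96 in differentiation medium and between 2.44 and 2.66 in proliferation medium. Of the 10 such fits, the differentiation call held in 2: without the differentiation library of mA16d#4 (1.19, adjusted p = 0.0294) or of mA19d#7 (1.96, adjusted p = 0.0162), and it was lost in the other 8. The adjusted p was then 0.287 and 0.182 without the differentiation libraries of Control NSC#1 and Control NSC#2, and 0.0744 and 0.0742 without their proliferation libraries. It was 0.0584 without the differentiation library of mA19d#4, and 0.0581, 0.0719 and 0.0668 without the proliferation libraries of mA16d#4, mA19d#4 and mA19d#7. The proliferation call was lost without the proliferation library of Control NSC#1 (0.277), Control NSC#2 (0.225), mA16d#4 (0.0554), mA19d#4 (0.0966) or mA19d#7 (0.0538), and held without any differentiation library.

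**Figure D1:**
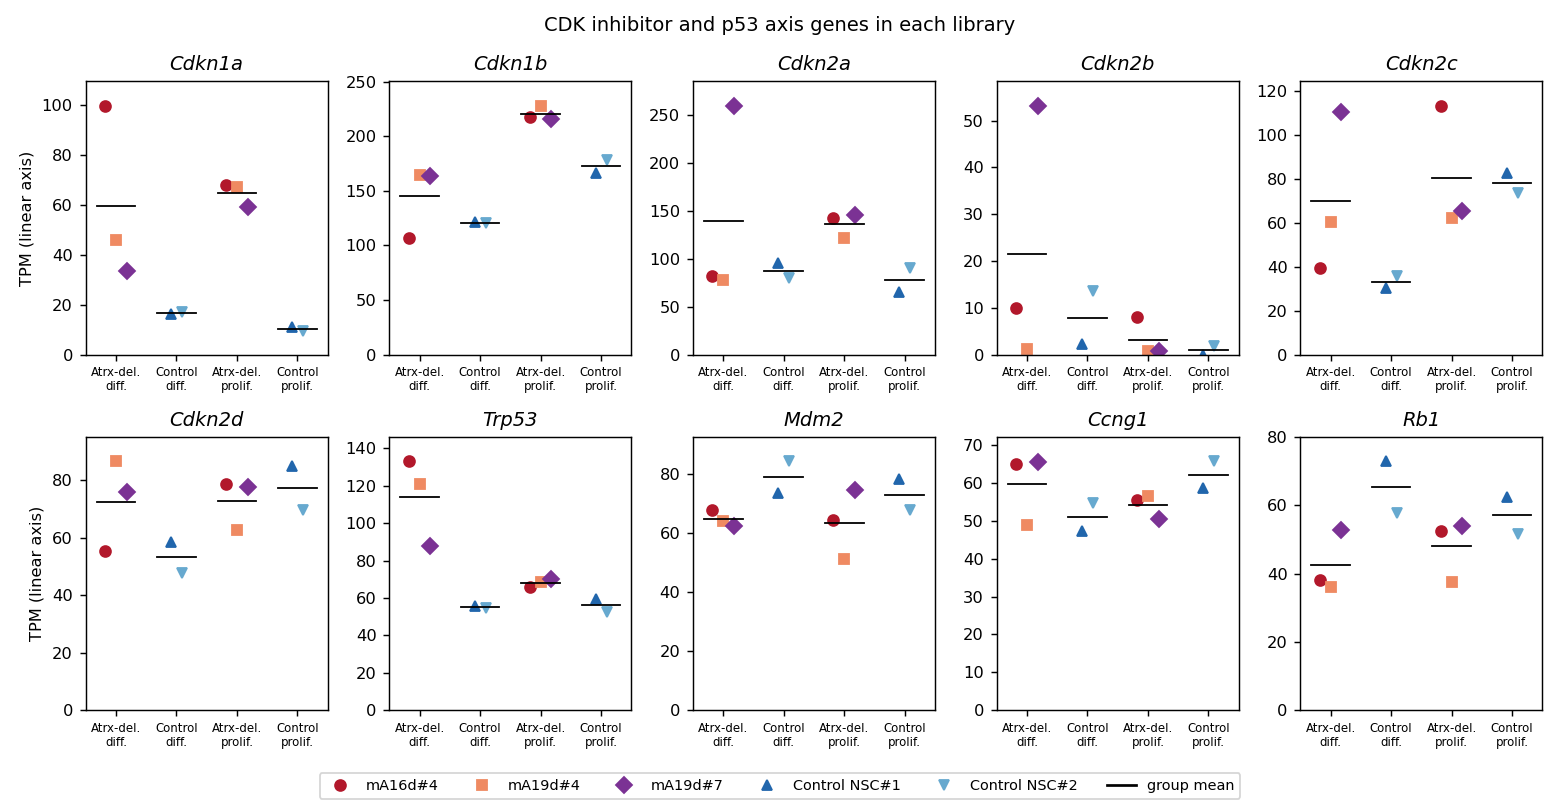
Level of each of the 10 genes in every library, in TPM on a linear axis that starts at 0; symbols stand for lines and the bar for the group mean. For Cdkn1a all Atrx-deleted libraries, from 33.6 to 99.6 TPM, lie above all control libraries, from 9.36 to 17.1 TPM.

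The other Cip/Kip genes did not share this pattern. Cdkn1b was the most abundant inhibitor in every group by its mean. In differentiation medium its levels were 107, 165 and 164 TPM in mA16d#4, mA19d#4 and mA19d#7, against 121.1 and 120.5 TPM in the control lines. In proliferation medium Cdkn1b was at 218, 228 and 215 TPM in the Atrx-deleted lines, against 167 and 178 TPM in the control lines. The groups overlapped in differentiation medium and did not in proliferation medium, with log2 differences of 0.24 (95% interval -0.19 to 0.66, adjusted p = 0.523) and 0.35 (-0.07 to 0.78, adjusted p = 0.454). Neither passed the test. Cdkn1c, which encodes the remaining Cip/Kip protein p57, was scarce. It was at or near the lowest value of the table in Atrx-deleted differentiation, with a highest library of 0.00563 TPM, against 1.58 and 3.20 TPM in Control differentiation. In proliferation medium Cdkn1c was at 0.00644, 0.734 and 0.411 TPM in the Atrx-deleted lines, against 2.52 and 3.33 TPM in the control lines. Its Atrx-deleted and control libraries did not overlap in either medium, and it missed the threshold, with adjusted p = 0.0553 in differentiation and 0.146 in proliferation medium. Within the Cip/Kip family, then, Cdkn1a was the gene called, and the measured difference for Cdkn1c had the opposite sign.

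Among the Ink4 genes none was called between genotypes. Cdkn2a encodes both p16 and, from another first exon and reading frame, p19Arf, which binds and restrains Mdm2; the table holds 1 value per gene, so the products cannot be told apart. In differentiation medium Cdkn2a was at 81.6, 77.9 and 259 TPM in mA16d#4, mA19d#4 and mA19d#7, against 95.5 and 79.7 TPM in the control lines. In proliferation medium Cdkn2a was at 143, 121 and 146 TPM in the Atrx-deleted lines, against 65.0 and 90.2 TPM in the control lines. The high differentiation value came from mA19d#7 alone, and the groups overlapped there, whereas in proliferation medium they did not. The log2 differences were 0.43 (95% interval -0.52 to 1.39, adjusted p = 0.612) in differentiation and 0.82 (-0.13 to 1.78, adjusted p = 0.435) in proliferation medium.

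Cdkn2b, the gene next to Cdkn2a, which encodes p15, was the least abundant of the 10 by mean in every group. In differentiation medium its levels were 9.96, 1.26 and 53.2 TPM in mA16d#4, mA19d#4 and mA19d#7, against 2.26 and 13.6 TPM in the control lines. In proliferation medium Cdkn2b was at 7.96, 0.774 and 0.889 TPM in the Atrx-deleted lines, against the lowest value of the table in Control NSC#1 and 1.92 TPM in Control NSC#2. The groups overlapped in both media, and the 95% intervals of the differences were wide, from -2.05 to 3.41 in differentiation medium and from -1.87 to 3.59 in proliferation medium. Cdkn2a and Cdkn2b were both at their highest in the differentiation library of mA19d#7, the library that stood apart. Without it the differentiation differences turned to -0.13 for Cdkn2a and -0.47 for Cdkn2b, neither called.

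In differentiation medium Cdkn2c, which encodes p18, was at 39.5, 60.4 and 111 TPM in mA16d#4, mA19d#4 and mA19d#7, against 30.5 and 35.8 TPM in the control lines. In proliferation medium Cdkn2c was at 113, 62.4 and 65.5 TPM in the Atrx-deleted lines, against 82.5 and 73.5 TPM in the control lines. The groups did not overlap in differentiation medium and overlapped in proliferation medium. The differentiation difference of 0.94 (95% interval 0.09 to 1.78) had an unadjusted p = 0.0332 and missed the threshold after adjustment (0.205; 0.55 without the library of mA19d#7, adjusted p = 0.299), and the proliferation difference was -0.01. Cdkn2d, which encodes p19Ink4d, was at 55.4, 86.5 and 75.8 TPM in the Atrx-deleted lines in differentiation medium, against 58.7 and 47.8 TPM in the control lines. In proliferation medium Cdkn2d was at 78.5, 62.8 and 77.6 TPM in the Atrx-deleted lines, against 84.9 and 69.7 TPM in the control lines. Its groups overlapped in both media, with log2 differences of 0.42 (adjusted p = 0.301) and -0.08 (adjusted p = 0.906).

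Trp53 itself (chr11:69580359-69591873 in GENCODE M21) was measured at 52.6 TPM or more in every library, although the cells are labelled p53-null. With no p53-intact library and 1 value for the whole gene, the level does not check the deletion, since transcript outside a deleted part would still be counted. In differentiation medium Trp53 was at 133, 121 and 87.6 TPM in mA16d#4, mA19d#4 and mA19d#7, against 55.9 and 54.5 TPM in the control lines. In proliferation medium Trp53 was at 66.0, 68.8 and 69.9 TPM in the Atrx-deleted lines, against 59.6 and 52.6 TPM in the control lines. The libraries did not overlap in either medium, and the gap was wider in differentiation medium, where the means were 114 ± 23.4 TPM in Atrx-deleted lines and 55.2 ± 0.974 TPM in control lines (SD, n = 3 and 2). The differentiation difference of 1.01 was called (SE 0.185, 95% interval 0.60 to 1.42, adjusted p = 0.0232), and the proliferation difference of 0.28 was not (95% interval -0.13 to 0.69, adjusted p = 0.546). The call was lost without the differentiation library of Control NSC#1 (adjusted p = 0.209) or Control NSC#2 (adjusted p = 0.143), with differences of 1.02 and 0.99. Without the differentiation library of mA19d#7 the difference was 1.18 (adjusted p = 0.00668), in a fit that called 939 genes in place of 452. Whether this transcript gives any protein was not measured.

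Mdm2, the ubiquitin ligase that p53 induces and that degrades p53, was at 67.8, 64.4 and 62.6 TPM in the Atrx-deleted lines in differentiation medium, against 73.6 and 84.4 TPM in the control lines. In proliferation medium Mdm2 was at 64.5, 51.3 and 74.9 TPM in the Atrx-deleted lines, against 78.6 and 67.8 TPM in the control lines. Its differentiation groups did not overlap, with the Atrx-deleted libraries lower, but the difference of -0.28 missed the threshold (95% interval -0.68 to 0.13, adjusted p = 0.426), as did -0.21 in proliferation medium (-0.61 to 0.19, adjusted p = 0.65). Ccng1, which encodes cyclin G1 and is another textbook p53 target, was at 64.9, 48.8 and 65.4 TPM in the Atrx-deleted lines in differentiation medium, against 47.4 and 54.6 TPM in the control lines. In proliferation medium Ccng1 was at 55.5, 56.4 and 50.6 TPM in the Atrx-deleted lines, against 58.7 and 65.6 TPM in the control lines. The log2 differences were 0.21 (95% interval -0.18 to 0.60, adjusted p = 0.533) and -0.19 (-0.59 to 0.20, adjusted p = 0.675). The upper ends of these intervals lie below the fitted difference of Cdkn1a in the same medium, but no test set one gene against another.

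In differentiation medium Rb1, the retinoblastoma gene, was at 38.2, 36.1 and 52.8 TPM in mA16d#4, mA19d#4 and mA19d#7, against 72.8 and 57.8 TPM in the control lines. In proliferation medium Rb1 was at 52.4, 37.5 and 54.0 TPM in the Atrx-deleted lines, against 62.5 and 51.6 TPM in the control lines. The groups did not overlap in differentiation medium, with the Atrx-deleted libraries lower, and overlapped in proliferation medium. The difference of -0.62 in differentiation medium (95% interval -1.14 to -0.11, unadjusted p = 0.0219) missed the threshold after adjustment (0.168), and that of -0.26 in proliferation medium did too (adjusted p = 0.671).

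Over the 10 genes, 2 were called in differentiation medium, Cdkn1a and Trp53, both higher in Atrx-deleted lines. Of all tested genes 2.89% were called there, and 1.55% were called higher. In proliferation medium 1 of the 10 was called, Cdkn1a, against 0.460% of all tested genes and 0.262% called higher. An unadjusted p below 0.05 was reached by 4 of the 10 in differentiation medium, beside 20.2% of all tested genes, and by 1 in proliferation medium, beside 13.7%. Without the differentiation library of mA19d#7, Cdkn1a and Trp53 were again the genes called in differentiation medium, in a fit that called 939 genes in place of 452. Each of these calls was lost in other fits with 1 library left out, as given above. The median difference of the 10 genes was 0.43 in differentiation medium and 0.14 in proliferation medium, beside 0.02 and -0.02 over all tested genes. Because the 10 genes were chosen with earlier results of these data known, these counts and medians are a description and not a test. Libraries of the genotypes did not overlap for 5 of the 10 genes in each medium, against 36.3% of all tested genes in differentiation and 38.0% in proliferation medium, a share near enough to the background that nothing is read from it.

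**Figure D2:**
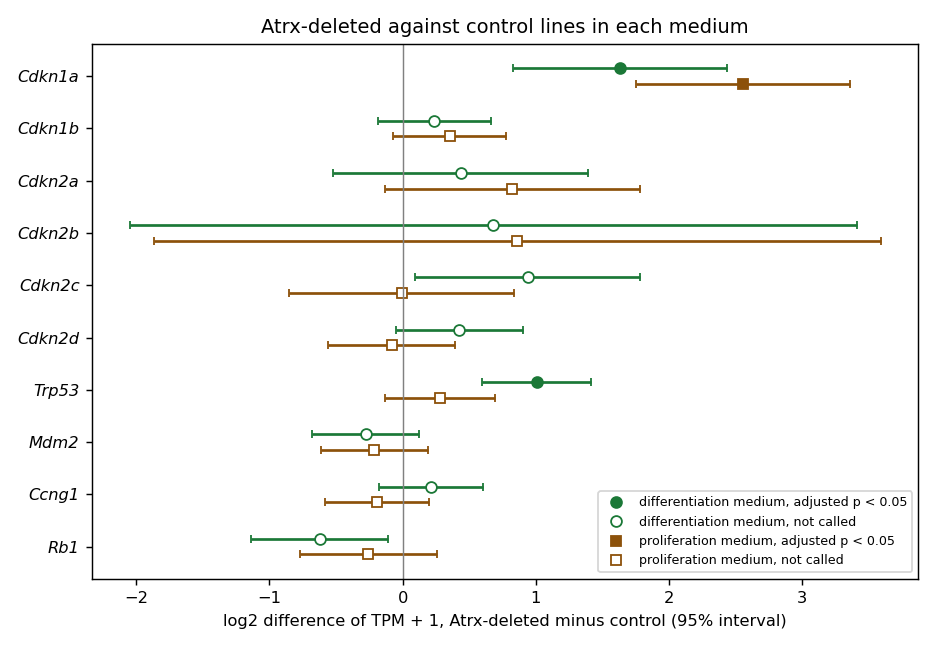
Log2 difference of TPM + 1, Atrx-deleted minus control lines, with its 95% interval, for each gene in each medium; filled symbols passed an adjusted p of 0.05. Cdkn1a stands at 1.63 in differentiation and 2.55 in proliferation medium, Trp53 is filled in differentiation medium only, and the intervals of Mdm2 and Ccng1 include 0.

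The order of levels changed with genotype. In Atrx-deleted proliferation Cdkn1a ranked 6 of the 10 by mean level, and its libraries overlapped those of its neighbours Trp53 and Mdm2. In Control proliferation it ranked 9, above only Cdkn2b. After differentiation Cdkn1a ranked 7 in the Atrx-deleted lines, overlapping Mdm2 and Ccng1, and 9 in the control lines, with no overlap with Cdkn2c above it or Cdkn2b below it. Cdkn1b held the first rank in all 4 groups, and its libraries lay above those of the next gene in all but Atrx-deleted differentiation.

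By limma 0 of the 10 were called between media in either genotype, beside 0.0830% of all tested genes in the Atrx-deleted lines and 4.51% in the control lines. An unadjusted p below 0.05 was reached by 2 of the 10 in Atrx-deleted lines, beside 14.8% of all tested genes, and by 3 in control lines, beside 19.9%. Cdkn1b showed the same sign in all 5 lines: its log2 difference, differentiation minus proliferation, was -1.02, -0.46 and -0.39 in mA16d#4, mA19d#4 and mA19d#7, and -0.46 and -0.56 in the control lines. The fitted differences were -0.62 in Atrx-deleted lines (unadjusted p = 0.00425, adjusted p = 0.159) and -0.51 in control lines (0.0346 and 0.203). Cdkn1a was at higher levels in differentiation medium in both control lines, by 0.52 and 0.80, while the Atrx-deleted lines split, with 0.54 in mA16d#4, -0.54 in mA19d#4 and -0.79 in mA19d#7. The fitted responses were -0.26 in Atrx-deleted lines (adjusted p = 0.754) and 0.66 in control lines (adjusted p = 0.407).

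Among the Ink4 genes, Cdkn2c showed the largest fitted difference between media that had an unadjusted p below 0.05. It was -1.21 in control lines (unadjusted p = 0.0154, adjusted p = 0.132), beside -0.27 in Atrx-deleted lines (adjusted p = 0.766). Without the differentiation library of mA19d#7, the control response of Cdkn2c passed the threshold (adjusted p = 0.0371), in a fit that called 1450 genes for that comparison in place of 706. Trp53 was higher in differentiation medium in all 3 Atrx-deleted lines, with a fitted difference of 0.71 (unadjusted p = 0.00152, adjusted p = 0.113), against -0.02 in control lines (adjusted p = 0.982). The Trp53 response of the Atrx-deleted lines also passed without the differentiation library of mA19d#7 (adjusted p = 0.0214), where 348 genes were called in place of 13. Both came with more calls over all genes. Differences between the genotypes in the response to the medium were tested as an interaction: 0 of the 10 passed by limma, beside 0.00639% of all tested genes. At an unadjusted p below 0.05 there was 1, Trp53, beside 7.02% of all tested genes. The Trp53 interaction was 0.73 (SE 0.261, limma adjusted p = 0.608). For Cdkn1a the interaction was -0.92 (95% interval -2.06 to 0.21, adjusted p = 0.782), so a larger genotype difference in proliferation than in differentiation medium was not shown.

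**Figure D3:**
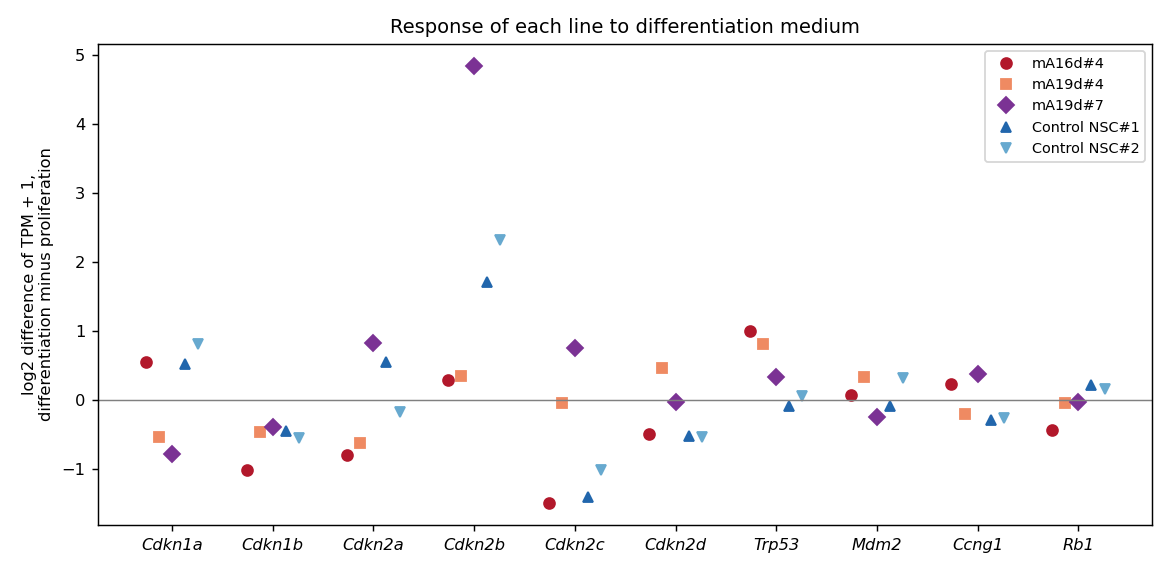
Log2 difference of TPM + 1, differentiation minus proliferation medium, of each gene in each of the 5 lines; each symbol is 1 line and the grey line marks 0. Cdkn1b is below 0 in all 5 lines, and Cdkn1a is above 0 in mA16d#4 and both control lines and below 0 in mA19d#4 and mA19d#7.

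Genes near Cdkn1a were examined because the table holds its neighbours too. Within 250 kb there were 10 tested genes besides Cdkn1a. By limma 0 were called in either medium, beside 2.89% (differentiation) and 0.460% (proliferation) of all tested genes. At an unadjusted p below 0.05 there were 3 in differentiation and 2 in proliferation medium, beside 20.2% and 13.7%. Nothing is read from these counts. The nearest was Trp53cor1 (chr17:29057430-29079179, minus strand), 11.8 kb from Cdkn1a. This is the long noncoding RNA lincRNA-p21, known as p53-induced, and it was singled out after its values were seen. In differentiation medium its levels were 5.14, 5.49 and 2.77 TPM in mA16d#4, mA19d#4 and mA19d#7, against 1.11 and 0.398 TPM in the control lines. In proliferation medium Trp53cor1 was at 7.84, 13.9 and 4.26 TPM in the Atrx-deleted lines, against 0.275 and 1.01 TPM in the control lines. Every Atrx-deleted library was higher than every control library, as for Cdkn1a. The differences were 1.63 in differentiation medium (SE 0.495, unadjusted p = 0.0079, adjusted p = 0.107) and 2.47 in proliferation medium (SE 0.495, unadjusted p = 0.000514, adjusted p = 0.0706), which did not pass the threshold. The other 9 neighbours lay between -0.56 and 0.32 in differentiation medium and between -1.31 and 0.66 in proliferation medium.

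**Figure D4:**
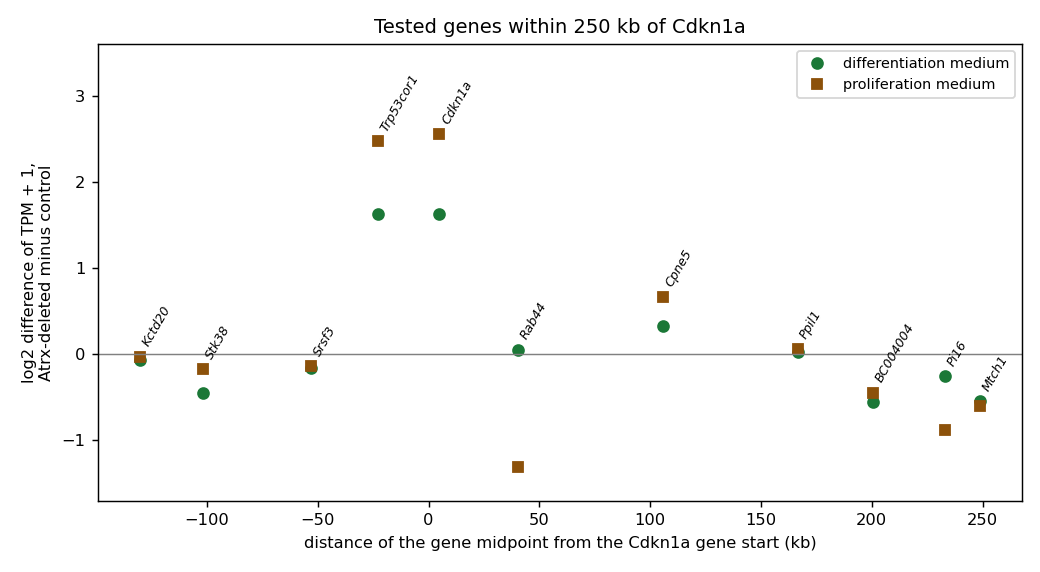
Log2 difference of TPM + 1, Atrx-deleted minus control lines, of the tested genes within 250 kb of Cdkn1a, by distance of the gene midpoint from the Cdkn1a start; circles are differentiation and squares proliferation medium. Cdkn1a and Trp53cor1 stand at 1.63 in differentiation medium and at 2.55 and 2.47 in proliferation medium, and the other genes lie between -1.31 and 0.66.

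The same window around Trp53 held 30 tested genes. In differentiation medium 1 was called by limma, Tmem88 (named after its values were seen), beside 2.89% of all tested genes. An unadjusted p below 0.05 was reached there by 8, beside 20.2%. In proliferation medium 0 were called, beside 0.460%, and 1 had an unadjusted p below 0.05, beside 13.7%. The window around Cdkn2a held 2 tested genes, Mtap and Cdkn2b, and neither was called. By likeness of pattern over the 10 libraries (Pearson r of log2(TPM + 1), among genes with a mean of at least 5 TPM), Alyref (0.97), Nme2 (0.96), Ivns1abp (0.96), Cops7b (0.94) and Nwd1 (0.93) were most like Cdkn1a. Wnt4, which encodes a Wnt ligand, Cenpo and Ift27 were most opposite (r = -0.96 for each). Wnt4 averaged 0.951 ± 0.543 TPM in Atrx-deleted differentiation and 12.3 ± 2.11 TPM in Control differentiation. These r values were picked as extremes of 11349 genes over libraries that share lines and genotypes. Of the other 9 genes, Trp53 was most like Cdkn1a (r = 0.69) and Rb1 least (r = -0.67).

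Calls among other p53 pathway genes were single genes, and nothing particular to the pathway is read from the counts. Of 30 tested p53 targets outside the 10 genes, 0 were called by limma in proliferation medium beside 0.460% of all tested genes, and 1 had an unadjusted p below 0.05, beside 13.7%, with a median difference of -0.02, equal to that of all tested genes to 2 decimals. In differentiation medium 1 was higher and 0 were lower, beside 2.89% of all tested genes called in either direction, with a median of 0.03 beside 0.02. The 1 was Ckap2, a spindle protein gene, at 92.0 ± 34.8 TPM in Atrx-deleted lines and 22.3 ± 2.48 TPM in control lines (log2 difference 1.92, adjusted p = 0.0204). Of 17 tested p53 family members and regulators, the checkpoint kinase gene Chek1 was called in differentiation medium (10.5 ± 3.04 TPM in Atrx-deleted and 2.43 ± 0.44 TPM in control lines, log2 difference 1.71, adjusted p = 0.0337), 1 of the 17 beside the same 2.89% of all tested genes. In proliferation medium 0 were called by limma, beside 0.460%, and 1 had an unadjusted p below 0.05, beside 13.7%. The p53 relatives Trp63 and Trp73 and the Mdm2 partner Mdm4 were not called in any comparison. Trp63 averaged 1.14 ± 0.987 TPM in Atrx-deleted and 1.16 ± 0.927 TPM in Control differentiation, and 0.0249 ± 0.0242 TPM in Atrx-deleted and 0.00635 ± 0.00129 TPM in Control proliferation (SD, n = 3 and 2). Trp73 was at 0.137, 1.34 and 0.0212 TPM in mA16d#4, mA19d#4 and mA19d#7 after differentiation, against 0.826 and 2.58 TPM in the control lines. In proliferation medium Trp73 was at 0.0198, 3.30 and 3.57 TPM in the Atrx-deleted lines, against 0.00551 and 0.0195 TPM in the control lines. The genotypes overlapped in differentiation medium and did not in proliferation medium, as for 38.0% of all tested genes. There the 2 mA19d lines were high and mA16d#4 was near the control lines. The limma adjusted p for Trp73 was 0.511 in differentiation and 0.395 in proliferation medium.

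Regulators of Cdkn1a transcription other than p53 were examined next: 0 of 28 tested were called by limma between genotypes in either medium, where 2.89% (differentiation) and 0.460% (proliferation) of all tested genes were. At an unadjusted p below 0.05 there were 4 in differentiation and 3 in proliferation medium, beside 20.2% and 13.7% of all tested genes, so the counts are not above the background. Their median differences were 0.09 in differentiation and 0.22 in proliferation medium, beside 0.02 and -0.02 over all tested genes. In differentiation medium Myc, a known repressor of Cdkn1a, was at 65.6, 159 and 109 TPM in mA16d#4, mA19d#4 and mA19d#7, against 61.3 and 72.3 TPM in the control lines. In proliferation medium Myc was at 80.2, 108 and 103 TPM in the Atrx-deleted lines, against 58.4 and 51.0 TPM in the control lines. It was not called (0.64, adjusted p = 0.272, and 0.81, adjusted p = 0.286). Of 20 tested regulators of p27 and of the Ink4 locus, 1 was called by limma in differentiation medium, beside 2.89% of all tested genes. It was Cks1b, a cofactor in p27 degradation (97.6 ± 24.1 TPM in Atrx-deleted and 38.8 ± 3.99 TPM in control lines, 1.28, adjusted p = 0.0307). An unadjusted p below 0.05 was reached there by 7 of the 20, beside 20.2%. In proliferation medium 0 were called, beside 0.460%, and 2 had an unadjusted p below 0.05, beside 13.7%. Of 14 tested senescence and secretory genes, 0 were called by limma between genotypes, with 2 in each medium at an unadjusted p below 0.05, beside 20.2% of all tested genes in differentiation and 13.7% in proliferation medium.

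Kinases and cyclins that the inhibitors act on were measured in the same libraries. Cdk4, Cdk6, Ccnd1, Ccnd2, Ccnd3 and the Rb relatives Rbl1 and Rbl2 were not called in any comparison. Cdk6 averaged 15.9 ± 10.1 TPM in Atrx-deleted differentiation and 5.13 ± 0.344 TPM in Control differentiation, and 29.6 ± 8.97 and 12.2 ± 0.489 TPM in Atrx-deleted and Control proliferation, with adjusted p = 0.218 and 0.358. In differentiation medium 5 of 19 tested cyclin, CDK and CDC25 genes were higher in Atrx-deleted lines and 1 was lower, beside 2.89% of all tested genes called in either direction. The mitotic phosphatase gene Cdc25c averaged 12.2 ± 2.84 TPM in Atrx-deleted lines and 1.40 ± 1.98 TPM in control lines, and Ccnb1, the mitotic cyclin B1, 76.5 ± 35.3 and 14.3 ± 3.17 TPM. Cdk1, the mitotic kinase, averaged 36.8 ± 16.5 TPM in Atrx-deleted and 7.26 ± 3.82 TPM in control lines, and Pkmyt1, a kinase that inhibits Cdk1, was the gene that fell (30.3 ± 1.68 and 53.9 ± 1.45 TPM). In proliferation medium 0 of the 19 were called by limma, and 2 had an unadjusted p below 0.05, beside 13.7% of all tested genes.

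The E2F transcription factors drive S-phase genes, and the DREAM complex represses cell-cycle genes in resting cells. In differentiation medium 4 of 18 Rb, E2F and DREAM genes and 5 of 20 S-phase E2F targets were higher in Atrx-deleted lines and 0 lower, beside 1.55% of all tested genes called higher. Their median differences were 0.64 and 0.94, beside 0.02 over all tested genes. Among them were E2f2 (2.18), Foxm1 (1.81), E2f7 (1.73), the licensing inhibitor gene Gmnn (2.17), Uhrf1 (1.69) and the helicase subunit gene Mcm5 (1.67), all log2 differences. These calls come from a fit that shares 1 spread per gene over all groups. With the compared groups fitted alone, 2 genes were called between genotypes in differentiation medium in place of 452. The lists were also chosen with earlier results of these data known, so their counts and medians are a description. In proliferation medium 0 of either list were called by limma, with 2 of the 18 and 7 of the 20 at an unadjusted p below 0.05, beside 13.7% of all tested genes. In the control lines Cdc25c, Ccnb1, Cdk1, Gmnn, Foxm1 and E2f7 were lower in differentiation than in proliferation medium, with called log2 differences of -3.44, -2.95, -2.71, -2.59, -2.03 and -1.98. In all, 5 of the 19, 3 of the 18 and 3 of the 20 were called lower there, beside 4.51% of all tested genes called in either direction, E2f8 (-2.22), Tk1 (-2.10) and Mcm6 (-0.89) among them, and the DREAM subunit gene Lin52 was higher (1.01). From the other lists, Ckap2 (-1.90), Stat3 (-1.38), Cks1b (-1.30), Hmga2 (-2.58) and Lmnb1 (-1.29) were also lower in differentiation medium in the control lines. In the Atrx-deleted lines 0 genes of these 3 lists were called between media by limma, with 5 of the 19, 3 of the 18 and 2 of the 20 at an unadjusted p below 0.05, beside 14.8% of all tested genes. The interaction called 0 of them too, so a different response of the genotypes was not shown.

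In differentiation medium Mki67, a marker of cycling cells, was at 55.6, 163 and 90.5 TPM in mA16d#4, mA19d#4 and mA19d#7, against 23.1 and 23.5 TPM in the control lines. In proliferation medium Mki67 was at 190, 169 and 170 TPM in the Atrx-deleted lines, against 306 and 172 TPM in the control lines. It was called in differentiation medium (1.96, adjusted p = 0.0271) and not in proliferation medium (-0.38, adjusted p = 0.707). The genotypes overlapped in Mki67 in proliferation medium and did not in differentiation medium, where the Atrx-deleted libraries were higher in both Mki67 and Cdkn1a. Among the Atrx-deleted differentiation libraries, mA16d#4 had the highest Cdkn1a and the lowest Mki67. The lowest Cdkn1a, in mA19d#7, came with a middle Mki67, and the highest Mki67, in mA19d#4, with a middle Cdkn1a, so the libraries showed no consistent order. The summed level of 5 cycling markers was 191 to 472 TPM in Atrx-deleted differentiation and 66.7 to 75.9 TPM in Control differentiation, and 484 to 670 and 443 to 735 TPM in Atrx-deleted and Control proliferation. The part of cycling cells in the difference of Cdkn1a or Trp53 was not tested.

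**Figure D5:**
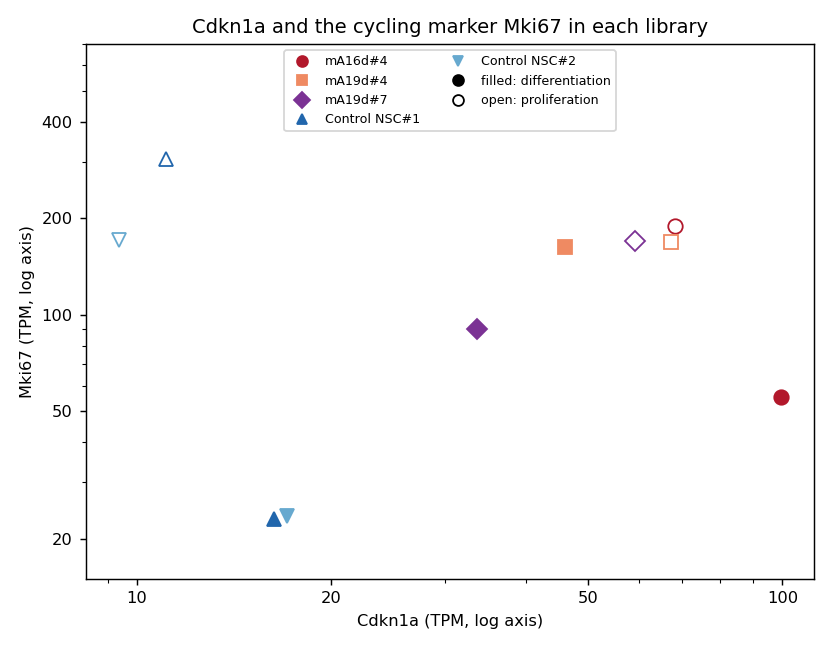
Cdkn1a against Mki67 in each of the 10 libraries, both in TPM on log axes; filled symbols are differentiation and open symbols proliferation libraries. All Atrx-deleted libraries lie to the right, at 33.6 TPM of Cdkn1a or more, and the control differentiation libraries lie lowest, at 23.1 and 23.5 TPM of Mki67.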

How the data were processed

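One table with 21101 genes and 10 libraries was used. Its values are log2 TPM as deposited by the authors, who aligned reads with STAR to mm10, per the submitters' processing notes. Annotation, versions and the quantification tool: not given in the sources used here. Sorted, the values of all libraries are identical, which is the mark of quantile normalisation before deposit. At the bottom is -8, held by 1213 genes in each library, and back-transformed values sum to 997524 per library. Depth is unknown, so no counting error can be given, and a change in total RNA cannot be seen.

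The limma package (version 3.58.1, in R 4.3.3) fitted a linear model with trend to log2(TPM + 1) of the back-transformed values, for genes of at least 1 TPM in at least 2 libraries (15660). The fit held 4 group means over 10 libraries, with 6 residual degrees of freedom. The 5 comparisons were the genotypes in each medium, the media in each genotype, and the interaction, each adjusted by Benjamini-Hochberg over all tested genes, with a threshold of 0.05. Differences on this scale understate changes of scarce genes. One spread per gene is shared, although a typical gene (median SD) varied by 0.353 and 0.264 in the Atrx-deleted and 0.141 and 0.148 in the control groups, in differentiation and proliferation medium. The fit was run on simulated data with independent errors and no effect of line, which does not check the p-values of these data.

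The 10 genes and all lists were chosen with earlier results of these data known. All comparisons draw on the same 10 libraries, so they are not independent of each other. Beside the 10, the text names up to 3 called genes per list and direction, some fixed genes, and the 5 genes most like Cdkn1a and the 3 most opposite, passing over clone-type symbols. A gene named outside this rule is said to be so. Lines are the same in both media, so the labels pair libraries by line: deviations from the group mean correlated with r = 0.0624 in the control lines and 0.159, 0.404 and -0.194 in mA16d#4, mA19d#4 and mA19d#7. Alternatives were other pseudocounts, filters and limma settings, groups fitted alone, weights per group, scaling by median-of-ratios factors, line as a block, and leaving out every library and every line in turn. Positions are from GENCODE M21 and sequences from RefSeq GRCm38.p6, which matched 9 of the 10 genes.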

Additional observations from a re-analysis of the deposited data

How the results depend on the processing

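No called difference of the 10 genes changed sign under any alternative. Over all alternatives and comparisons 1281 values of the 10 genes stayed on their side of the threshold, 30 lost it and 9 gained it. The Cdkn1a difference in proliferation medium passed in 10 of 11 processing alternatives (not without a filter, adjusted p = 0.0758) and in 2 of 5 with a whole line left out. In differentiation medium it passed in 8 of 11 (0.104 without a filter, 0.0694 without trend, 0.207 with the groups fitted alone) and in 2 of 5. Trp53 in differentiation medium passed in 10 of 11 (0.165 with the groups fitted alone) and in 1 of 5. Across libraries left out, Cdkn1a ranged from 1.189 to 1.959 in differentiation and from 2.442 to 2.663 in proliferation medium. In control lines, the fall in differentiation medium passed for Cdkn1b and Cdkn2c with the groups fitted alone (adjusted p = 0.0283 and 0.0178) and with weights (0.0227 and 0.0105), and for Cdkn2d with weights (0.0493).

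Counts of called genes moved more. Between genotypes in differentiation medium (452) there were 2 with the groups fitted alone and 1 to 939 with libraries or lines left out. In proliferation medium (72) there were 39 on the deposited log2 values, 37 without a filter, 672 with weights and 0 to 250 with libraries or lines left out. Between media in Atrx-deleted lines (13) there were 2 without a filter, 0 without trend, 0 with the groups fitted alone, 6 with the line as a fixed replicate block, 1 with weights and 0 to 348 with libraries or lines left out. In control lines (706) there were 2080 with the groups fitted alone, 2984 with weights, 487 with the replicate block and 0 to 1450 with libraries or lines left out. The interaction (1) gave 0 with pseudocounts of 0.1 and 0.5, 0 on the deposited log2 values, 30 without a filter, 0 with a filter of 5 TPM, 2 without trend, 0 with the replicate block, 6 with weights and 0 to 3 with libraries or lines left out. The cause was not tested. Where leaving out a control library or line leaves a group with 1 library, that library is assumed to vary like the other groups. As a random block line changed no call among the 10 genes, but its correlation was 0.0515, close to no block. As a fixed block it changed no call between media or in the interaction. The fixed block cannot fit the genotype comparisons, because each line has 1 genotype.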
